A study of Arabidopsis thaliana with 18 samples.

Results

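The comparison described here set all libraries from seedlings grown with sugar against all libraries from seedlings grown without it, in both genotypes at once. It took 12 sugar libraries (6 glucose and 6 sucrose) against 6 mock libraries and so used each of the 18 libraries of the series. Whole 5-day-old seedlings of Arabidopsis thaliana were grown on half-strength MS medium, either without sugar (mock) or with glucose or sucrose, each at 15 mM. Both the Col-0 accession and the atm1-1 mutant were grown in this way, with 3 biological replicates for each of the 6 combinations. The mutant is a single T-DNA insertion line, SAIL_405_B08, in the Col-0 background, and ATM1 encodes a plant-specific class VIII myosin. RNA was read as 3′ QuantSeq libraries, in which each read comes from near the polyadenylated end of a transcript. Reads were counted per gene, and genotype entered the model as a covariate, so that the sugar effect is an average over both genotypes and both sugars.

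Sugars are at once fuel, building material and signal in a seedling. Sucrose made by photosynthesis is carried to the roots and split by invertases or sucrose synthases, and the hexoses are phosphorylated by hexokinases, of which HXK1 is also a glucose sensor. Ample sugar is known to favour TOR kinase signalling and growth, whereas sugar shortage activates the SnRK1 kinase, which turns on genes for breaking down proteins, amino acids and cell wall sugars. Photosynthesis genes are classic targets of repression by sugar.

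The libraries held 9450790 to 20256309 counts on genes. Mock libraries had 12414000 to 17433441, glucose libraries 9450790 to 14120130 and sucrose libraries 10539681 to 20256309. Of 32832 genes in the table, 19679 passed the filter on low counts and were tested. Levels are given as CPM (counts scaled to a common library total) after TMM normalization, an edgeR method that allows for a few abundant transcripts taking reads from the rest. A gene was called when its Benjamini-Hochberg adjusted p-value (q) from edgeR's quasi-likelihood test was at most 0.1, the threshold used in the study. ATM1 itself had 314 to 590 counts in Col-0 libraries and 311 to 623 in those labelled atm1-1, so these 3′ reads do not tell the genotypes apart. Its change with sugar was −0.06 on the log2 scale (SE 0.12, q = 0.81). One library, atm1-1 glucose replicate 2, stood apart from the other 17. It lay at 99.01 on the first principal component of log2 CPM, against −35.14 to 26.22 for the others. The counts of genes changed by any sugar are therefore given without it as well, and so are the counts of a gene list where they moved by more than 1 gene. In whole seedlings, fewer cells of a type and less RNA per cell cannot be told apart.

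Sugar changed 2368 of the 19679 genes tested, or 12.0%, with 1253 higher (6.37%) and 1115 lower (5.67%). Among called genes, the rises were larger than the falls. Called genes that rose had a median log2 fold change of 0.61, and 325 of them (25.9%) at least doubled in level. Called genes that fell had a median of −0.43, and 64 of them (5.74%) fell to 1/2 or less. The called rises also lay at lower levels, with a median mean log2 CPM of 3.5 against 4.7 for the called falls. The part of level in the sizes was not tested. In 154 genes (0.783% of those tested) all 12 sugar libraries lay above all 6 mock libraries, and in 97 (0.493%) all lay below, or 1.28% together. Without atm1-1 glucose replicate 2, 2796 of 19966 genes were called (14.0%), 1405 higher (7.04%) and 1391 lower (6.97%). Without atm1-1 mock replicate 3, the count was 1569. The division between rises and falls depended on scaling. With plain library size scaling in place of TMM, 77.8% of 2575 calls were rises, against 52.9% in the main fit, and the median of all genes shifted to 0.09.

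**Figure D1:**
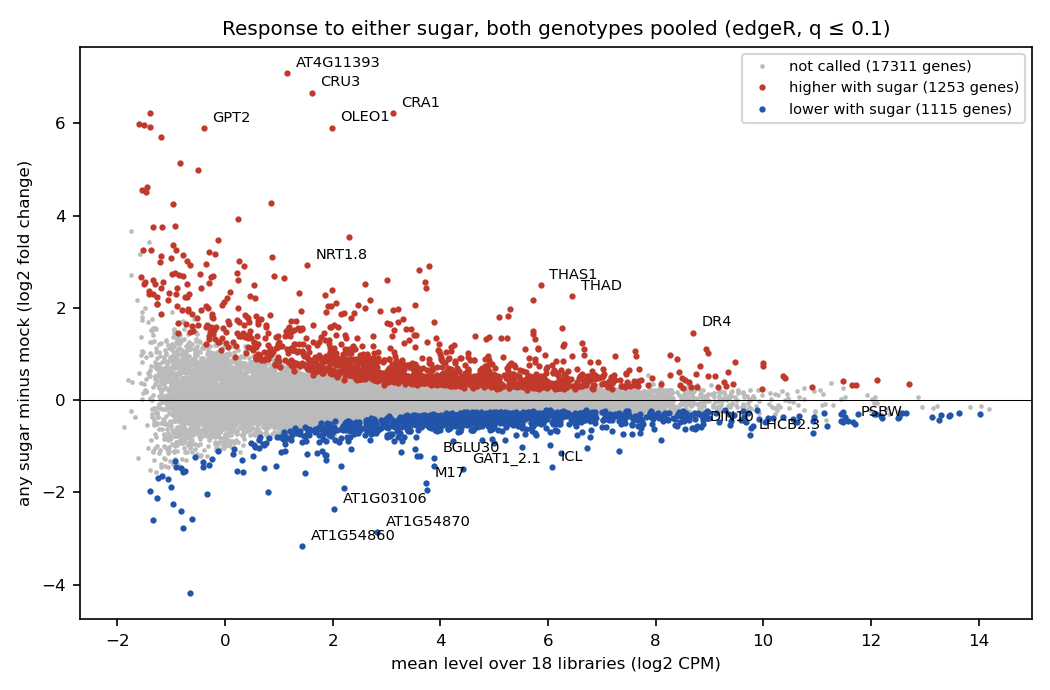
Log2 fold change of sugar against mock (vertical axis) against mean level over the 18 libraries in log2 CPM (horizontal axis) for the 19679 genes tested. Red points are the 1253 genes called higher, blue points the 1115 called lower and grey points the genes not called, and the labelled rises reach higher than the falls do in the other direction.

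The largest rise of all genes tested was in AT4G11393, a defensin-like gene. Only 4 reads fell on it in the 6 mock libraries together, against 1286 in the 12 sugar libraries, or 4.27 to 14.2 CPM (median 7.13). The ratio of the levels was 154 (95% interval 60.2 to 568, counting error only). The gene was thus close to absent from mock seedlings and present in each sugar library. DR4 (AT1G73330), a drought-repressed gene of the Kunitz protease inhibitor family, had one of the smallest p-values and was far more abundant. It had 164 to 261 CPM (median 221.8) in mock libraries and 399.5 to 773 (median 604) in sugar libraries, with no overlap. The rise on the log2 scale was 1.46 (SE 0.11, edgeR q = 1.3e-09), and the mean levels differed 2.74-fold. AT2G43590, a chitinase family gene, had 18.2 to 20.7 CPM in the 6 mock libraries and 52.5 to 135 with sugar. Its rise was 2.18 (SE 0.17, edgeR q = 1.5e-09). NRT1.8 (AT4G21680), a nitrate transporter that takes nitrate back out of the xylem, had 0.235 to 1.42 CPM in mock libraries and 2.89 to 8.27 with sugar, a rise of 2.92 (SE 0.30, edgeR q = 1.0e-07). Other large rises with complete separation and a mean log2 CPM of at least 1 were AT5G55410 (3.53), of the lipid-transfer protein family, AT5G35660 (2.91), a glycine-rich protein, BHLH100 (2.64), an iron-deficiency transcription factor, and AT4G36700 (2.52), a cupin.

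The lowest change of all genes tested was in AT1G71250, a gene under the expression minimum used to choose the other examples and named after its value was seen. It had 3.53 ± 2.09 CPM (SD, n = 6) in mock libraries and 0.195 ± 0.263 (SD, n = 12) with sugar, a change of −4.18 (SE 0.47, edgeR q = 6.8e-07). At higher expression, the genes that fell most were a pair of neighbours on chromosome 1. AT1G54860, which encodes a GPI-anchored membrane glycoprotein precursor, had 7.03 to 32.2 CPM in mock libraries and 0.129 to 5.78 with sugar, with no overlap. The gene thus changed by −3.167 in log2 units (SE 0.29, edgeR q = 2.4e-08). AT1G54870, of the NAD(P)-binding Rossmann-fold family, fell by 2.86 (SE 0.24, edgeR q = 5.6e-09). Its mock libraries held 10.8 to 61.9 CPM and its sugar libraries 1.08 to 11.02, an overlap at the edge that came from the genotypes. In Col-0 its lowest mock library had 31.0 CPM and its highest sugar library 11.02, and in atm1-1 these were 10.8 and 4.11. Both genes therefore separated sugar from mock within each genotype. In the TAIR10.1 annotation their starts face away from each other across 320 bases.

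The 250 bases before the start of AT1G54870 (chr1:20458702-20458951, TAIR10.1, plus strand, RefSeq) are printed because 180 of them also lie in the window of AT1G54860. They are set beside the windows of BT2 (chr3:17910739-17910988, minus strand) and CP12-2 (chr3:23090694-23090943, plus strand), a pair of lowered genes described further on. Letters run 5′ to 3′ on the gene's own strand, and capitals mark matches on either strand to the sugar-repressive element TTATCC, to the amylase-type sugar box TATCCA and to the I-box GATAAG.
AT1G54870: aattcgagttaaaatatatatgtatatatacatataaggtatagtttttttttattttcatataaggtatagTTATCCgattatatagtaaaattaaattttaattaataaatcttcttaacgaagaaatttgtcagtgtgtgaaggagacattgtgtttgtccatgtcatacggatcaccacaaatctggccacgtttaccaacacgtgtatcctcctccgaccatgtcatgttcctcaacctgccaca
BT2: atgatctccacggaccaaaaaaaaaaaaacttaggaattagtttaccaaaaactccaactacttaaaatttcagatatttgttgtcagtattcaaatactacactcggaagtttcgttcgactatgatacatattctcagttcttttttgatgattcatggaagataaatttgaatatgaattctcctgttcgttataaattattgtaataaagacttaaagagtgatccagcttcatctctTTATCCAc
CP12-2: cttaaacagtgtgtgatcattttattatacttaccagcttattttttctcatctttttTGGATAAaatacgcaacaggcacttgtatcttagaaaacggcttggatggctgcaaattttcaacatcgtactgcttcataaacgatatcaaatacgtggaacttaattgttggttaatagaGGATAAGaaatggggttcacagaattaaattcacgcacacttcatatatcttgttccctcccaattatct
AT1G54870 holds a single TTATCC, BT2 an overlapping TTATCC and TATCCA close to its start, and CP12-2 matches to each of the 3 motifs. These windows are examples that hold matches, and the other named genes were mixed. In their 250 bases the lowered ICL, BGLU30, PSBW and RPE held none and the lowered MIOX4 held 5. The raised CRU3 and CRA1 held 2 each, the raised OLEO1 and THAS1 none, and ASN1, which was not called, held 4. Over windows from 250 bases before to 50 after the start, TTATCC occurred in 27.1% of 1115 lowered genes, in 11.5% of 1253 raised genes and in 15.7% of all 19678 genes with a window. TATCCA occurred in 27.5%, 13.6% and 16.6%, and GATAAG in 25.7%, 12.2% and 15.1%, in the same order. The 3 words share letters (TTATCCA holds the first pair, and GATAAG overlaps the reverse of TTATCC), so these shares are not separate counts. At least 1 of them was present in 48.4% of lowered, 28.1% of raised and 33.3% of all genes. Leaving out the photosynthesis lists used below gave 47.4% for the other 1056 lowered genes. The telo-box AACCCTA went the other way, with 3.4% of lowered, 6.5% of raised and 7.9% of all genes. TGGGCC was present in 17.4%, 11.9% and 18.8%, the G-box CACGTG in 11.7%, 10.3% and 8.9%, and the evening element core AATATCT in 13.6%, 13.4% and 11.8%. These are matches of letters only, and binding was not measured.

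Other falls with complete separation, again at a mean log2 CPM of at least 1, reached −2.36. AT1G03106, whose product is uncharacterized, had 6.40 to 22.9 CPM in mock libraries and 0.966 to 4.65 with sugar. GAT1_2.1 (AT1G15040), a class I glutamine amidotransferase-like gene, had 30.7 to 60.9 CPM in mock libraries and 11.04 to 23.0 with sugar, a fall of 1.49 (SE 0.14, edgeR q = 3.8e-08). All 12 sugar libraries lay under all 6 mock libraries for both. THA1, a threonine aldolase that breaks threonine down to glycine, fell by 1.12, and AT4G25580, of the CAP160 family, by 1.91. The defensin-like genes AT5G33355 (−1.94) and AT3G59930 (−1.02) also fell, opposite in direction to the defensin-like AT4G11393, and reads shared between such short related genes may have been divided between copies.

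**Figure D2:**
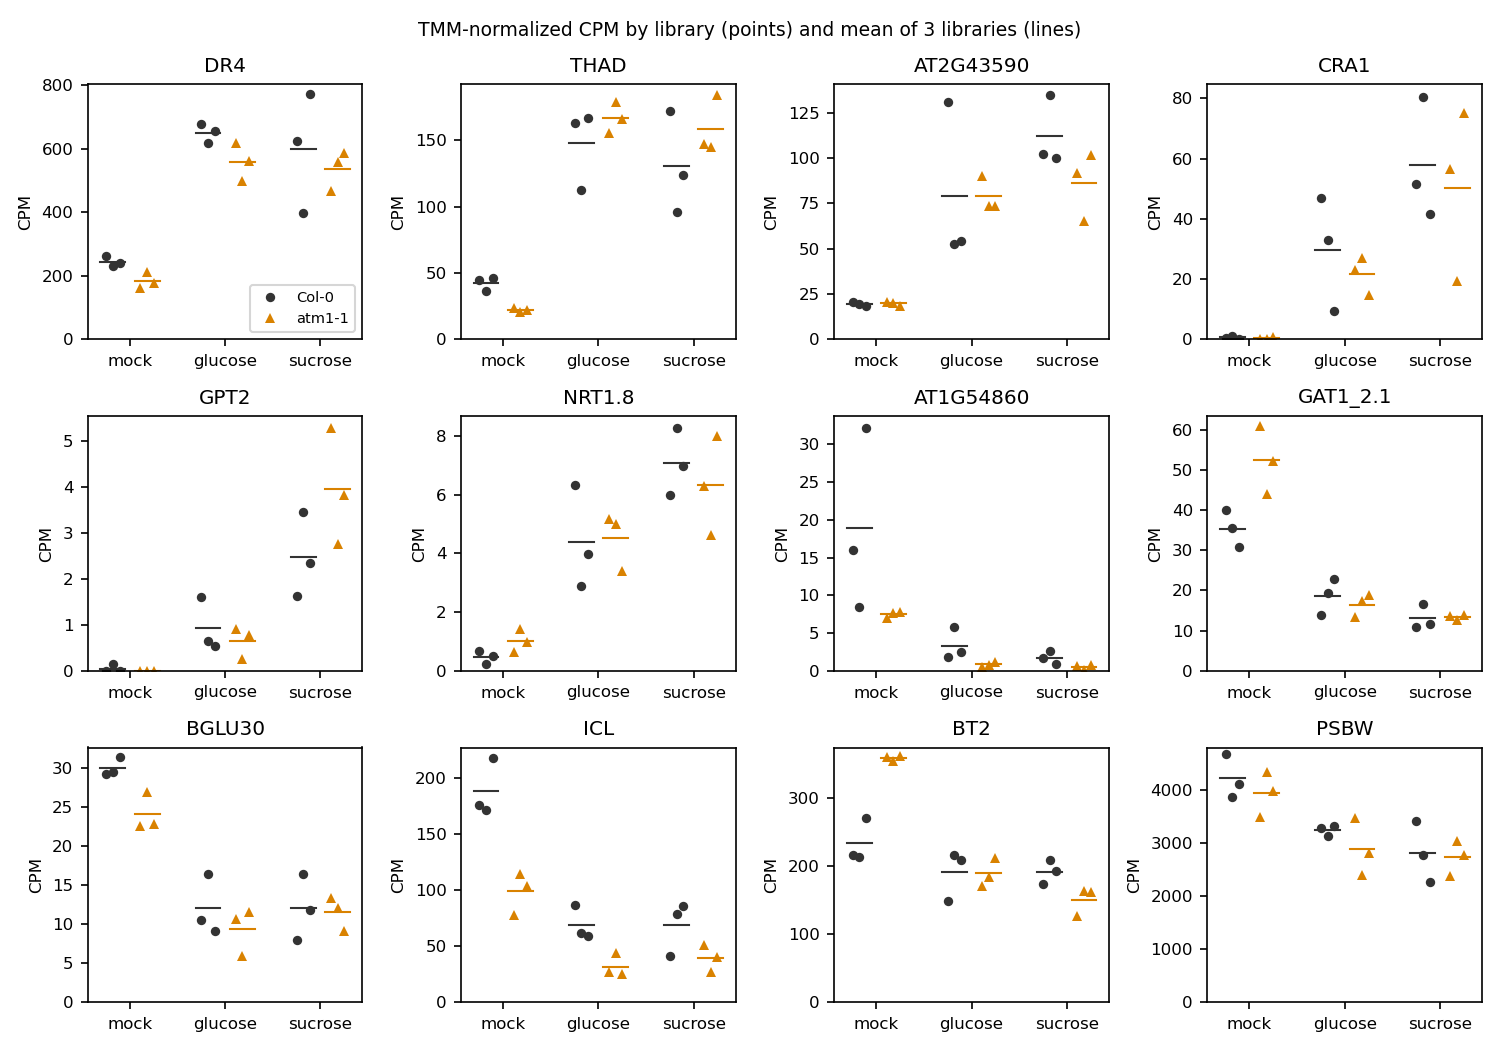
CPM of 12 genes (vertical axes, linear and starting at 0) in each of the 18 libraries, by treatment (horizontal axis). Circles are Col-0 libraries, triangles atm1-1 libraries and lines the mean of 3 libraries, and in the first 6 panels every sugar library sits above every mock library.

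Genes that sugar shortage is known to turn on were examined first. Of 28 tested members of a list of sugar-repressed genes, 13 fell and none rose, with a median log2 fold change of −0.34, against 0.0028 over all genes tested. Fitted alone, Col-0 had a list median of −0.22 and atm1-1 of −0.49. BGLU30, a beta-glucosidase also known as DIN2, was the member that separated most clearly, at 22.6 to 31.4 CPM in mock libraries and 5.89 to 16.5 with sugar. It fell by 1.26 (SE 0.14, edgeR q = 8.5e-07). BCAT2, which starts the breakdown of branched-chain amino acids, had 9.57 to 24.9 CPM in mock libraries and 6.25 to 12.4 with sugar (−1.05, SE 0.16, edgeR q = 6.7e-05). Later steps of leucine breakdown fell too, namely IVD (−0.49), MCCA (−0.46) and MCCB (−0.37). MIOX4, which opens the myo-inositol ring, fell by 2.13 from a level of at most 1.095 CPM. Without atm1-1 glucose replicate 2, 15 members fell, and with library size scaling 10 did.

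Several well known members of that list were not called. ASN1 (DIN6), the asparagine synthetase used as a marker of low sugar, had 223 to 321 CPM in mock libraries and 156 to 289 with sugar, and its change of −0.25 was not called (SE 0.11, edgeR q = 0.17). SEN1 (DIN1) changed by −0.32 (q = 0.10, just above the threshold) and passed the threshold under 10 of 27 alternatives, among them the replicate block (q = 0.060), limma (q = 0.091) and DESeq2 (q = 0.096). DRM1 changed by −0.11 (q = 0.57) and the SnRK1 catalytic subunit KIN11 by −0.27 (q = 0.13). DIN10, a raffinose synthase-like gene, did fall, by 0.58 (SE 0.12, edgeR q = 0.0014), and so did BT2, a BTB-TAZ scaffold protein of nutrient signalling, by 0.70 (SE 0.12, edgeR q = 0.00037). BT2 showed a gap between the genotypes without sugar. Its mock libraries held 214 to 272 CPM in Col-0 and 355 to 363 in atm1-1, and its sugar libraries 149 to 218 and 127 to 212. In separate fits BT2 changed by −0.28 in Col-0 (not called) and by −1.07 in atm1-1 (called). The difference between genotypes in its response was not called. Of 8 trehalose-6-phosphate synthase genes 1 fell, against 5.67% of all genes tested. It was TPS11, of the class II group, which fell by 0.57 (SE 0.11, edgeR q = 0.0015). TPS8 (−0.29), TPS9 (−0.11) and TPS10 (−0.05) were not called, and TPS10 was at 0.022 with library size scaling.

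Photosynthesis genes fell together and by small amounts. Of 40 genes for photosystem subunits and light-harvesting antenna proteins, 28 fell and none rose, with a median of −0.30. Of 19 Calvin cycle genes, 14 fell and none rose, with a median of −0.35 (12 fell with library size scaling). Under RLE scaling the photosystem count was 25 with a median of −0.30, under library size scaling 22 with −0.23, and without atm1-1 glucose replicate 2 it was 36. Transcripts of the 40 photosystem genes made up a large share of these libraries. Their summed level was 244537 to 258783 CPM in Col-0 mock libraries and 181712 to 226668 with sugar, with no overlap. In atm1-1 it was 228652 to 269179 and 168202 to 264016, where the highest sugar library was atm1-1 glucose replicate 2. The Calvin cycle genes summed to 22510 to 27725 CPM in the 6 mock libraries and 15244 to 22657 in the 12 sugar libraries.

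Members ranged from −0.76 to 0.04 in the photosystem list and from −0.67 to −0.08 in the Calvin cycle list, with 12 of 40 and 5 of 19 not called. The members named next are among the largest falls. PSBW, a small photosystem II subunit, had 3498 to 4681 CPM in mock libraries and 2260 to 3468 with sugar, so that the groups did not overlap although the means differed only 1.4-fold (−0.48, SE 0.10, edgeR q = 0.0016). LHCB2.3, an antenna protein of photosystem II with close paralogs that may share reads, fell by 0.76 (SE 0.13, edgeR q = 0.00018). PSBQ1, of the oxygen-evolving complex, fell by 0.52, and PSBS, which is needed to shed excess light energy, by 0.51. In the Calvin cycle, RPE, the ribulose-phosphate epimerase, had 389 to 481 CPM in mock libraries and 223 to 334 with sugar (−0.55, SE 0.09, edgeR q = 0.00012), again without overlap. CP12-2, a small protein that ties up Calvin cycle enzymes in the dark, fell by 0.67, GAPA2 by 0.61 and the aldolase FBA2 by 0.56.

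**Figure D3:**
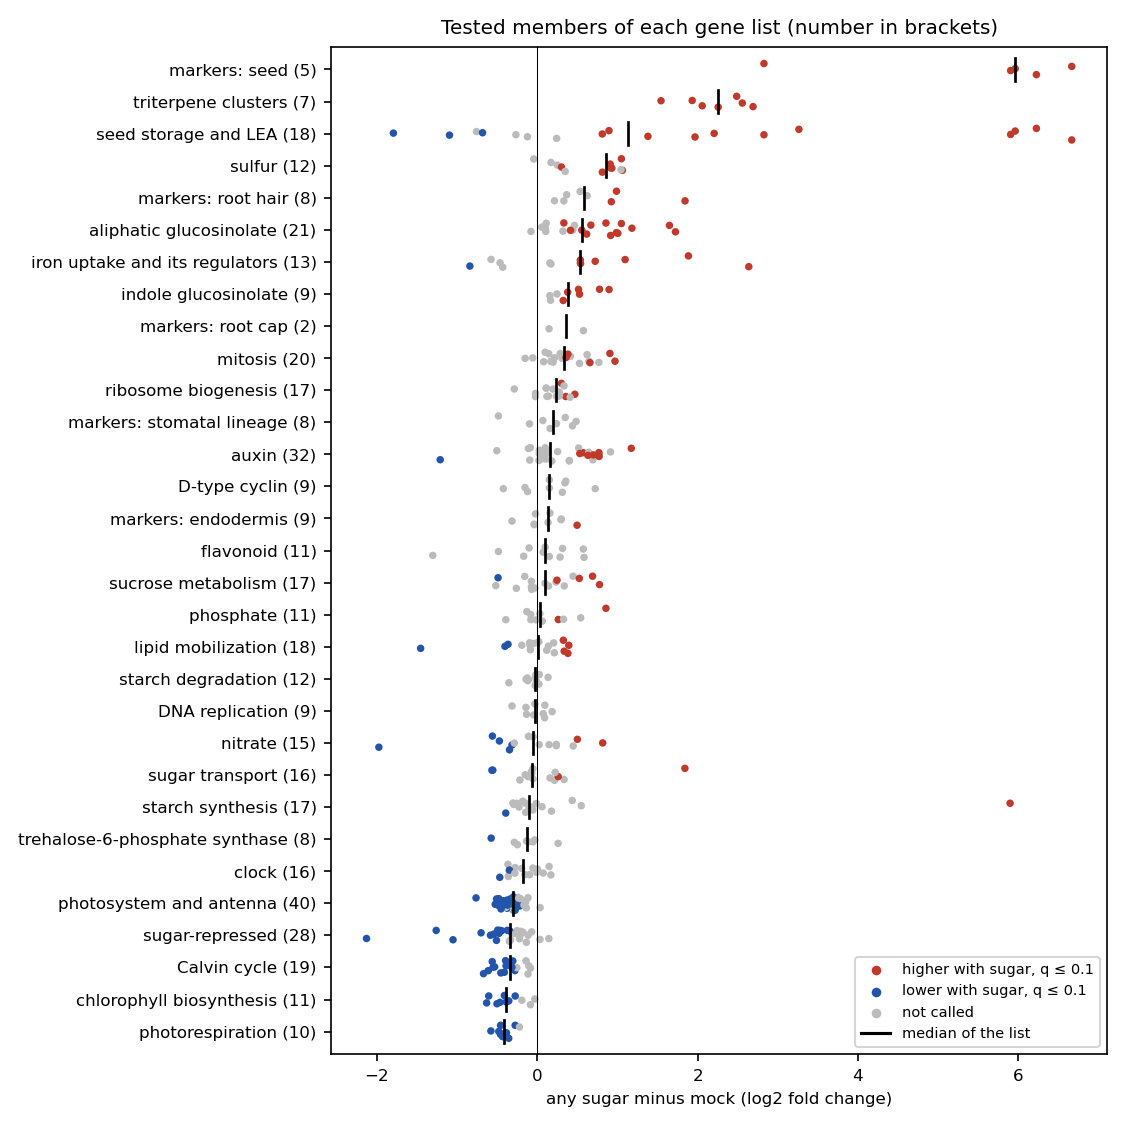
Log2 fold change of sugar against mock (horizontal axis) for each tested member of 31 gene lists, ordered by median (black bars), with the number of members in brackets. The photosynthesis and sugar-repressed lists lie just left of 0 with many called members (blue), and the triterpene, glucosinolate, sulfur and seed lists lie to the right (red).

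Genes for sugar handling gave mixed results. The largest change among these lists was in GPT2 (AT1G61800), the plastid glucose-6-phosphate translocator. Only 2 reads fell on it in mock libraries, both in Col-0 replicate 2, against 364 in sugar libraries. Its level was 0.264 to 1.60 CPM on glucose and 1.64 to 5.29 on sucrose, so that the sugars themselves did not overlap, although their difference was not called (2.00, SE 0.43, edgeR q = 0.10). The ratio of sugar to mock was 87.4 (95% interval 24.0 to 724, counting error only). CWINV1, a cell wall invertase, had 43.2 to 47.9 CPM in mock libraries and 56.7 to 77.8 with sugar (0.53, SE 0.09, edgeR q = 0.00016). SPS2F, a sucrose phosphate synthase, rose by 0.78 (SE 0.17, edgeR q = 0.0041). Of 17 genes of sucrose metabolism 4 rose and 1 fell. CWINV1 and SPS2F kept their calls under the alternatives. The raised AT1G62660 lost its call under 19 of 27, the raised SUS6 under 10 and the lowered VI2 under 10. Among 16 sugar transporter genes 2 rose and 2 fell, with SWEET15, a sucrose exporter, at 1.84 and STP14, a monosaccharide transporter, at −0.55. The other calls, SWEET12 (higher) and SWEET11 (lower), were lost under 8 and 5 of 27 alternatives. Over all genes tested 6.37% rose and 5.67% fell. SWEET15 was low and overlapped in both genotypes, at 0 to 3.77 CPM in mock libraries and 0.833 to 5.90 with sugar. The hexose transporter STP1 was not called (−0.22, SE 0.12, edgeR q = 0.30), nor was APL3, a subunit of the starch enzyme ADP-glucose pyrophosphorylase (0.55, SE 0.30, q = 0.30). HXK1 was at 0.14 (q = 0.61). None of 12 starch degradation genes was called.

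Genes of the root triterpene clusters rose as a whole. In these clusters, neighbouring genes make thalianol and marneral, specialized metabolites of Arabidopsis roots. All 7 genes rose, by 1.54 to 2.69 with a median of 2.26, and in 6 of them every sugar library lay above every mock library. THAS1, the thalianol synthase (AT5G48010), had 12.2 to 27.8 CPM in mock libraries and 57.3 to 133 with sugar (2.49, SE 0.20, edgeR q = 1.5e-09). THAD (AT5G47990), a cytochrome P450 that acts on thalianol derivatives, had 20.31 to 46.3 CPM in mock libraries and 96.0 to 184 with sugar (2.26, SE 0.17, edgeR q = 1.3e-09). The exception to complete separation was MRN1, the marneral synthase, which rose by 2.69 (SE 0.50, edgeR q = 0.00077) and overlapped at the edge. Mock levels differed by genotype. The 7 genes summed to 86.8 to 96.0 CPM in Col-0 mock libraries and 47.0 to 50.5 in atm1-1, and to 204 to 405 and 311 to 411 with sugar. THAD rose by 1.71 in Col-0 and 2.91 in atm1-1, and that difference, the one with the lowest q of all genes, was not called (1.19, SE 0.23, edgeR q = 0.34). None of the promoter windows of these 7 genes held any of the 3 motifs marked above. Among 21 aliphatic glucosinolate genes, also a raised list, 10 (47.6%) held at least 1, against 33.3% of all genes.

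Glucosinolate genes, which make the sulfur-rich defence compounds of the mustard family, also rose. Of 21 genes of the aliphatic branch 13 rose and none fell (median 0.56), and of 9 genes of the indolic branch 6 rose and none fell (median 0.38). Fitted alone, Col-0 had an aliphatic median of 0.34 and atm1-1 of 1.08. The indolic medians were 0.23 and 0.55. No gene of either list was called for a difference between the genotypes. CYP79F1, which converts chain-elongated methionine to an aldoxime, had 6.21 to 8.40 CPM in Col-0 mock libraries and 10.3 to 17.1 with sugar. In atm1-1 it had 0.577 to 2.76 and 3.09 to 6.14, so the groups separated within each genotype and overlapped when pooled (1.18, SE 0.21, edgeR q = 0.00039). BCAT4, which starts methionine chain elongation, rose by 1.05 (SE 0.20, edgeR q = 0.0011), and MAM3, of the next step, by 1.72 from at most 1.18 CPM. The regulators MYB28 (0.11, q = 0.70) and MYB29 (0.06, q = 0.96) were not called. On the indolic side, CYP81F4, which modifies the indole ring, had 153.5 to 323 CPM in mock libraries and 308 to 522 with sugar (0.90, SE 0.13, edgeR q = 4.3e-05). CYP79B2, at the entry of the pathway from tryptophan, rose by 0.53 (SE 0.11, edgeR q = 0.0022).

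**Figure D4:**
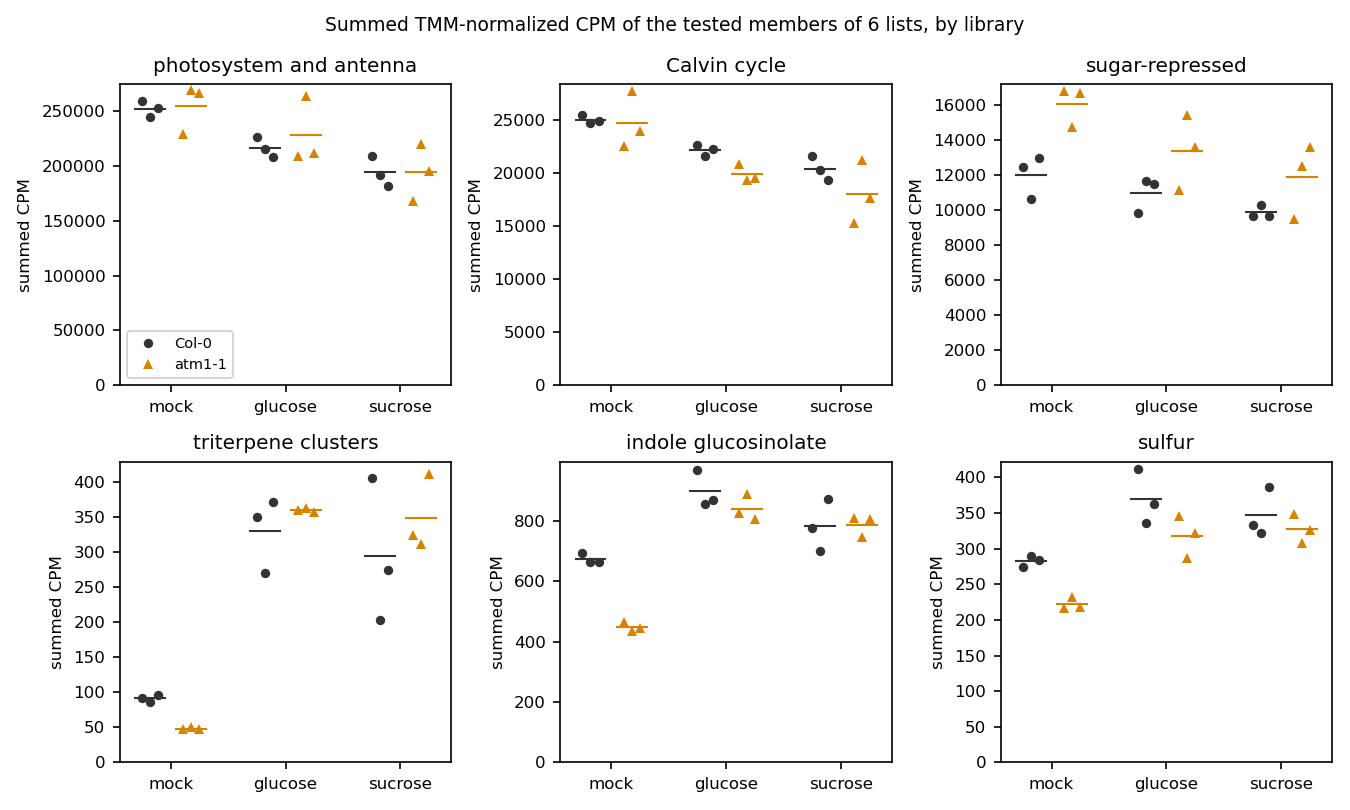
Summed CPM of the tested members of 6 gene lists (vertical axes, linear and starting at 0) in each library, by treatment (horizontal axis). Circles are Col-0, triangles atm1-1 and lines the mean of 3 libraries. Photosystem and Calvin cycle sums fall from mock to sugar, whereas triterpene, indole glucosinolate and sulfur sums lie higher with sugar in every library than in mock libraries of the same genotype.

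Nutrient genes did not move as a block. Among 12 sulfur assimilation and sulfur-starvation genes 7 rose and none fell (median 0.86), or 9 with library size scaling. SULTR1;2, the main root sulfate uptake transporter, had 28.0 to 44.2 CPM in mock libraries and 42.7 to 79.6 with sugar (0.91, SE 0.13, edgeR q = 1.3e-05). APR1, which reduces activated sulfate, rose by 0.93 (SE 0.13, edgeR q = 1.7e-05) with no overlap, and LSU1, a gene of the response to low sulfur, by 1.06 (SE 0.18, edgeR q = 0.00032). Of 15 nitrate genes 2 rose and 5 fell, against 6.37% and 5.67% of all genes tested. Without atm1-1 glucose replicate 2, 4 rose and 5 fell, and with library size scaling 5 rose and 4 fell. HRS1, a nitrate-induced repressor of phosphate starvation genes, rose by 0.82 (SE 0.12, edgeR q = 3.0e-05) and the dual-affinity transporter NRT1.1 by 0.50 (SE 0.10, edgeR q = 0.0017). NRT3.1, the partner of the high-affinity transporters, fell by 0.56, and GLU1, the leaf ferredoxin-dependent glutamate synthase, by 0.47. Of 11 phosphate genes 2 rose, among them the transporter PHT1;4 (0.86, SE 0.23, edgeR q = 0.019), against 6.37% of all genes tested. Of 11 flavonoid genes tested, out of 19 listed, none was called, and MYB75, the anthocyanin regulator known for its induction by sucrose, was at −1.30 (not called).

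Many of these transporters are root genes, so markers of root cell types are given beside them. Of 8 root hair markers 3 rose and none fell (median 0.58), with RHS12 at 1.84. The 8 markers summed to 25.9 to 41.9 CPM in mock libraries and 30.3 to 84.5 with sugar, and none was at 0. Of 9 endodermis markers 1 rose (ESB1, 0.50), against 6.37% of all genes tested. Their sums were 331 to 436 CPM in mock libraries and 245 to 593 with sugar. Neither of 2 root cap markers nor any of 8 stomatal lineage markers was called, with medians of 0.36 and 0.20. The groups overlapped in all 4 sums, and the part of tissue proportions in the results above was not tested.

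Seed and embryo genes changed in both directions. Of 18 tested genes for storage proteins, oil bodies and late embryogenesis abundant (LEA) proteins, out of 26 listed, 11 rose and 3 fell. The 8 genes left out had too few reads, and members with almost no mock reads passed the filter through the sugar libraries alone, so these counts describe the tested genes only. CRA1, a 12S cruciferin storage protein, had 0.158 to 1.26 CPM in mock libraries and 9.502 to 80.6 with sugar (6.23, SE 0.50, edgeR q = 1.7e-09). OLEO1, an oleosin coat protein of seed oil bodies, had 0.0787 to 0.706 CPM in mock libraries and 2.67 to 31.9 with sugar (5.91, SE 0.55, edgeR q = 3.6e-08). CRU3, another cruciferin, had 10 mock reads in all and 2280 with sugar, a ratio of 110 (95% interval 59.4 to 229, counting error only). SESA2, a 2S albumin, had no reads in any mock library and 98 with sugar, at least 15.7-fold higher against a floor of 3 reads over the mock group. These 4 genes thus had few or no reads in mock libraries. For CRA1, OLEO1 and CRU3 every sugar library lay above every mock library in both genotypes. SESA2 did so in Col-0 only, and in atm1-1 its sugar libraries ran from 0 to 1.365 CPM. Others were already present without sugar or rose less. The oleosin gene OLEO2 had 1.18 to 7.30 CPM in mock libraries and 3.01 to 44.3 with sugar, and the oleosin family gene AT3G01570 rose by 0.89. PAP85, a vicilin-like gene, was at −0.76 and not called, and SESA4 had 2 reads in mock libraries and none with sugar.

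The 3 members that fell were RAB18, M17 and ABI5, a transcription factor of abscisic acid signalling in seeds (−0.68). RAB18, a dehydrin induced by abscisic acid, fell by 1.09 (SE 0.13, edgeR q = 9.8e-07). Its mock libraries held 329 to 411 CPM in Col-0 and 152.5 to 202.5 in atm1-1, and its sugar libraries 107 to 204 and 99.9 to 130. M17, a glycine-rich LEA gene, fell by 1.79 (SE 0.34, edgeR q = 0.0011), from 12.1 to 72.2 CPM in mock libraries to 1.803 to 21.2 with sugar. Other LEA genes rose, namely EM1 (2.21), EM6 (1.97) and AT3G15670 (0.81), and LEA4-5 (0.24), LEA18 (−0.12) and LEA7 (−0.27) were not called. For 5 tested seed markers, all of them in the list above, the summed level was 1.42 to 7.89 CPM in mock libraries and 17.6 to 175 with sugar. The part of seed-type RNA in the other results was not tested.

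ICL, isocitrate lyase of the glyoxylate cycle, by which seedlings turn stored oil into sugar, was among the falls with the smallest p-values. It had 171 to 217 CPM in Col-0 mock libraries and 41.4 to 86.4 with sugar. In atm1-1 the values were 77.5 to 115 and 25.2 to 51.3, so the groups separated within each genotype but not when pooled. It fell by 1.45 (SE 0.14, edgeR q = 7.1e-08), by 1.45 in Col-0 alone and by 1.45 in atm1-1 alone. Its partner MLS, malate synthase, was at 0.00 and was not called. SDP1, the lipase that starts oil breakdown, fell by 0.40 (SE 0.10, edgeR q = 0.0071), while PCK1, which carries the carbon on to glucose, rose by 0.39 (SE 0.08, edgeR q = 0.0020) with no overlap between 80.7 to 90.1 CPM in mock libraries and 98.7 to 128 with sugar. Of 18 genes of lipid mobilization, 4 rose, 3 fell and 11 were not called, where 6.37% of all genes tested rose and 5.67% fell.

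Genes of growth and division showed small changes. Beside the counts that follow, 6.37% of all genes tested rose and 5.67% fell. Of 20 mitotic genes 5 rose and none fell (median 0.33), or 8 with library size scaling. The B-type cyclin CYCB2;3 had 1.64 to 3.98 CPM in mock libraries and 2.78 to 8.53 with sugar (0.91, SE 0.24, edgeR q = 0.018). CYCB2;3 kept its call under the alternatives, but PLE lost its call under 11 of 26, KN under 7 of 27 and CYCB2;4 under 5 of 27. None of 9 D-type cyclin genes and none of 9 DNA replication genes was called, with medians of 0.15 and −0.03. Of 17 ribosome biogenesis genes 3 rose and none fell (median 0.24), or 6 with library size scaling. Of the 3, NOP56 lost its call under 10 of 27 alternatives and CBF5 under 5. Of 32 auxin genes 8 rose and 1 fell. AIR1, first found in auxin-treated root cultures, had 40.2 to 49.7 CPM in mock libraries and 68.9 to 147 with sugar (1.17, SE 0.13, edgeR q = 3.0e-07). AIR3, a subtilisin-like protease of lateral root emergence, rose by 0.77 (SE 0.11, edgeR q = 1.8e-05) and the auxin transporter ABCB4 by 0.77 (SE 0.14, edgeR q = 0.00065). YDK1, a GH3 enzyme that conjugates auxin to amino acids, fell by 1.21 (SE 0.17, edgeR q = 1.3e-05). Of 16 clock genes 2 fell, RVE4 (−0.47, SE 0.11, edgeR q = 0.0067) and ELF3 (−0.35), and with library size scaling 1 did. Over all genes tested 5.67% fell, so this count is close to the background.

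Each sugar was also set against mock in a model with glucose and sucrose as separate levels. Since both were set against the same mock libraries, their values are given side by side and are not counted as agreement. Glucose against mock called 1007 genes (5.12%), 657 higher (3.34%) and 350 lower (1.78%). Sucrose against mock called 2716 (13.8%), 1300 higher (6.61%) and 1416 lower (7.20%). The glucose libraries included atm1-1 glucose replicate 2, which stood apart, and the shallowest library (9450790 counts). Counts for each sugar without atm1-1 glucose replicate 2 were not made, so these counts do not rank the sugars. DR4 rose by 1.51 on glucose and 1.42 on sucrose, THAD by 2.32 and 2.195, and CRA1 by 5.57 and 6.67. AT1G54870 fell by 2.87 and 2.84, ICL by 1.53 and 1.38, and PSBW by 0.41 and 0.56. The photosystem list had a median of −0.23 on glucose and −0.42 on sucrose, and the triterpene list 1.99 and 2.195.

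The direct test of sucrose against glucose called 8 of 19679 genes (0.0407%), 4 higher on sucrose (0.0203%) and 4 lower (0.0203%), with 1830 genes at an unadjusted p under 0.05. DESeq2 called 149 and limma 5. Those higher on sucrose were the cold-induced genes KIN2 (0.77), LTI78 (0.85) and COR15B (1.00) and the lipid-transfer gene AZI1 (0.84), a gene of systemic immunity. Those lower were AT1G26761 (−0.76), AT5G22140 (−0.80), AT5G01015 (−0.61) and AT3G62950 (−1.04). All 8 were named for passing this test. COR15B, for instance, had a mean of 25.1 CPM on glucose and 50.1 on sucrose (SE of the log2 difference 0.18, edgeR q = 0.040). Among the 2368 genes called for any sugar, 3 of the raised and 1 of the lowered also differed between the sugars.

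Whether the response was shared by the genotypes was examined in separate fits of 9 libraries each, which have no library in common. In Col-0, 294 of 19074 genes were called (1.54%), 211 higher (1.11%) and 83 lower (0.435%), and in atm1-1 782 of 18988 (4.12%), 517 higher (2.72%) and 265 lower (1.40%). These counts moved with single libraries, from 86 without Col-0 mock replicate 1 and 90 without Col-0 mock replicate 3 to 500 without Col-0 sucrose replicate 3. In atm1-1 they ran from 300 without mock replicate 3 to 1533 without glucose replicate 2, so the counts are no measure of how strongly a genotype responded. Over 18705 genes fitted in both, 67.7% changed in the same direction. Of 285 of these genes called in Col-0, 98.9% went the same way in atm1-1 and 68.4% were called there. Of 774 called in atm1-1, 97% went the same way in Col-0 and 25.2% were called. All 195 genes called in both had the same direction. The median size of their log2 changes was 1.07 in Col-0 and 1.38 in atm1-1. It depended on which genes were chosen. In the same order it was 1.02 and 1.075 for genes called in Col-0 and 0.48 and 0.85 for those called in atm1-1. For all genes fitted in both it was 0.19 and 0.22.

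**Figure D5:**
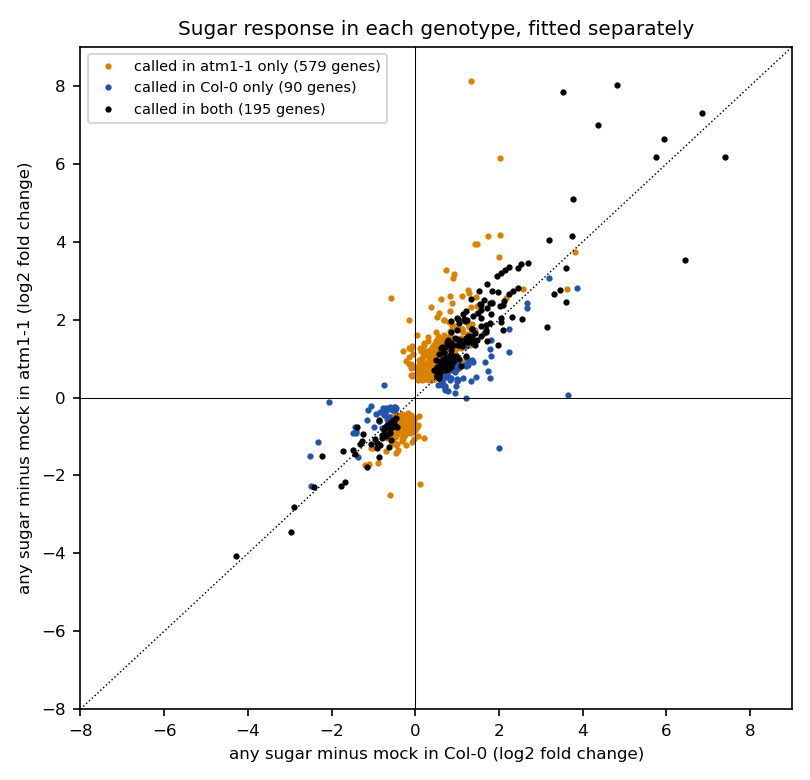
Log2 fold change of sugar against mock in Col-0 (horizontal axis) and atm1-1 (vertical axis), from separate fits, for the 864 genes called in at least 1 of them. Black points are the 195 genes called in both, orange the 579 called in atm1-1 only and blue the 90 called in Col-0 only, and all black points lie where both changes have the same sign. The dotted line marks equal change.

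The test of a difference between genotypes in the sugar response, over all 18 libraries, called no gene by edgeR at a q of 0.1. The lowest q was 0.34, and 649 of 19679 genes had an unadjusted p under 0.05. limma called 0 genes, DESeq2 6, and edgeR without a filter on low counts 1. For the genes of the shared response the estimates of that difference were often wide. CRA1 differed by 0.68 (SE 1.22), AT1G54870 by 0.08 (SE 0.54) and GAT1_2.1 by −0.65 (SE 0.27), none of them called.

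Some of these counts carry a limit from the annotation. In TAIR10.1 the named genes APR1, BCAT2, GLU1, LHCB2.3, NRT1.8, RAB18 and THA1 each overlap a neighbouring gene that itself had 1606 to 8129 counts over the 18 libraries, and GAT1_2.1 overlaps a pair of neighbours. KN overlaps one with 16098, ELF3 one with 846, STP1 one with 374 and OLEO1 one with 233. For ESB1 and CYP81F4 these counts were 75 and 59. The neighbour of GLU1 is BHLH101, an iron gene described further on, so the limit holds for both. Whether counting used the strand of the reads is not given in the sources used here, so reads could have been divided between such neighbours, and their values are uncertain to that extent.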

How the data were processed

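QuantSeq 3′ libraries (Lexogen FWD kit, 50-base reads) of 18 seedling samples were mapped by the authors to TAIR10, and they deposited raw whole-number counts per gene. The labels name STAR, HTSeq and edgeR without versions, and the annotation release and the strand setting are not given in the sources used here. A second deposited table, scaled by the authors, was not used. The sources describe no molecular identifiers, PCR copies thus count as reads, and intervals (95%) cover counting error only. The study's own tool, PoissonSeq, was not used here.

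Counts were analysed in R 4.3.3 with edgeR 4.0.16 (filterByExpr over the 6 groups, TMM, glmQLFit and glmQLFTest, genotype plus any sugar), limma 3.58.1 and DESeq2 1.42.0. Benjamini-Hochberg adjustment ran over all genes tested, with a threshold of 0.1. Each SE was obtained from the log2 fold change and the F statistic. Log2 CPM used a prior count of 2. Chi-square comparisons found no replicate pair within sampling noise. Separate fits took each genotype alone, the genotype difference and sucrose against glucose.

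The comparison, the gene lists and the named genes were chosen with earlier results of these data known. Named were the 10 largest rises and falls with complete separation and a mean log2 CPM of at least 1, the 5 smallest p-values in each direction, up to 4 called members of each list and direction, and 13 known sugar genes. Other members give context to a list. No list was tested as a set. Symbols and promoter windows were taken by locus from RefSeq's TAIR10.1, where 32547 identifiers matched. The windows were cut from its genome and annotation, since no ready promoter table was held. The replicate numbers do not pair the libraries by any label. On simulated counts of 19679 genes for this comparison, edgeR recovered 52.2% of genes changed 1.5-fold, 76.1% of those changed 2-fold and 100% of those changed 4-fold, and 13 of its 165 calls were unchanged genes. Only 67, 67 and 66 genes were changed by these folds and no genotype effect was simulated. In the data 12.0% of genes were called, so recovery there may differ. Alternatives were other scalings, filters, tools, designs and thresholds, the replicate block, single sugars and leaving out each library.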

Additional observations from a re-analysis of the deposited data

Results flagged for a closer look

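Within each treatment, 6 libraries per gene were checked for a single library far from the other 5, for 324 sets of values of the named genes. In 19 of them (5.86%) the gap to the nearest library, measured in log2 CPM, was more than 0.625 of the range. Chance flags about 1 in 20 sets drawn from a single population, but each set here mixed Col-0 and atm1-1 libraries. Of these, 5 fell on atm1-1 glucose replicate 2, the library that stood apart, and 4 on atm1-1 sucrose replicate 2.

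In atm1-1 glucose replicate 2 the level was lowest among glucose libraries for SWEET11 (7.92 CPM, next 22.7), VI2 (3.78, next 8.83), CP12-2 (37.8, next 66.6), LSU1 (8.44, next 21.3) and APL3 (0.264, next 2.48). In atm1-1 sucrose replicate 2 it was lowest among sucrose libraries for OLEO1 (9.14, next 20.5), AT5G55410 (5.67, next 14.7), AT4G36700 (7.86, next 12.7) and M17 (1.803, next 10.8).

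The other low values were AT5G47980 in Col-0 sucrose replicate 2 (10.5 CPM, next 19.7), THAD in Col-0 glucose replicate 2 (113, next 156) and STP14 in Col-0 sucrose replicate 3 (23.1, next 34.4). High values stood out for GPT2 in Col-0 mock replicate 2 (0.157 CPM, the others at 0), CP12-2 in Col-0 sucrose replicate 1 (74.8, next 55.4), SDP1 in atm1-1 mock replicate 2 (89.8, next 69.6) and PMDH2 in Col-0 glucose replicate 1 (513, next 463). They also stood out for NRT3.1 in Col-0 glucose replicate 3 (49.1, next 40.7), GLU1 in Col-0 mock replicate 1 (352, next 260) and APR1 in Col-0 sucrose replicate 3 (42.4, next 27.1).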

How the results depend on the processing

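For any sugar against mock (2368 genes), a threshold of 0.05 gave 1555, glucose and mock libraries alone 766 and sucrose and mock libraries alone 3623. RLE scaling (2341), DESeq2 (2734) and limma (2381) stayed within 1.5 times, and 77.1% of the calls were shared with library size scaling. Leaving out 1 library gave 1569 (atm1-1 mock replicate 3) to 2905. In Col-0 (294) the threshold of 0.05 gave 181, DESeq2 615 and leaving out 1 library 86 to 500. In atm1-1 (782) these were 474 at 0.05 and 300 to 1533. For the genotype difference (0), no filter gave 1, DESeq2 6 and leaving out 1 library 0 to 0. For sucrose against glucose (8), they were 5 at 0.05, 239 with no filter, 149 with DESeq2, 5 with limma and 2 to 17. The cause was not tested. The replicate numbers are shared by the groups, but deviations of same-numbered libraries correlated at −0.15 to 0.27 and only 4 of 18 libraries correlated best with their own number. The replicate block gave 2175 calls. Named genes were not followed under single sugars, without the genotype covariate or with the sugars averaged as separate levels. Under the other alternatives, TPS10 changed sign with library size scaling (0.022). There, 21 called named genes, none of them a gene of complete separation, lost their call under at least 1 alternative. Another 5 that were not called passed the threshold under some alternative, namely SEN1 (10 of 27), KIN11 (2), TPS8 (1), STP1 (1) and APL3 (1). Motif windows without the 50 bases after the start gave lower shares (TTATCC in 20.7% of lowered and 13.3% of all genes). In simulated counts at this depth, 52.2% of 1.5-fold changes were found, and smaller ones were not simulated. Far fewer genes were changed in the simulation than were called here, so the recovery in these data may differ.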

Other observations

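A few groups were looked at after their values had been seen, so their counts are descriptions of a choice made on these data. Chlorophyll biosynthesis genes moved like the photosystem genes they serve. Of 11 members 8 fell and none rose, with a median of −0.39, among them GUN4 (−0.63), which assists magnesium insertion, and HEMA1 (−0.60), the first committed enzyme of the pathway. HEMA1 had 249 to 319 CPM in mock libraries and 129 to 269 with sugar. Of 10 photorespiration genes 9 fell and none rose, with a median of −0.41, and their summed level was 5975 to 7009 CPM in mock libraries and 3884 to 5837 with sugar.

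Iron genes gave mixed results. Of the subgroup Ib transcription factors of the iron-deficiency response, bHLH38, bHLH39 and BHLH100 rose and BHLH101 was not called (0.54). bHLH38 had 1.56 to 3.61 CPM in mock libraries and 3.67 to 12.2 with sugar (1.89, SE 0.25, edgeR q = 5.7e-06). BHLH100 was at 2.64 and bHLH39 at 1.096. Also higher were PYE (0.54), a regulator of iron homeostasis, BTS (0.54), a ubiquitin ligase that restrains iron uptake, and the nicotianamine synthase gene NAS4 (0.72). FRO2, the ferric reductase, fell by 0.84 (SE 0.27, edgeR q = 0.055), and the iron transporter IRT1 was at −0.58 (SE 0.22, q = 0.12). FRU, the regulator of root iron uptake also called FIT, was not called (−0.46), nor were F6'H1 (0.16) and CYP82C4 (−0.43). Of 13 genes in all, 6 rose and 1 fell, against 6.37% and 5.67% of all genes tested. With library size scaling 7 rose and none fell.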
